A study of Mus musculus with 1505 samples.

Results

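Sst Calb2 cells are a transcriptomic type (t-type) of somatostatin (Sst) interneuron in mouse primary motor cortex. They were chosen by label: a cell recorded at 25 °C belonged here when its t-type was given as exactly Sst Calb2, and cells labelled Sst Pvalb Calb2 were kept apart. The rule found 61 cells among the 1320 recorded at 25 °C, of which 272 carried a t-type that begins with Sst. Each cell had been measured by Patch-seq, in which a neuron in an acute brain slice is recorded through a pipette, its contents are drawn through that pipette, in most cells together with at least part of the nucleus, and its RNA is sequenced. The mice were adults of both sexes, either wild type (C57Bl/6) or carrying a Cre driver such as Sst-Cre, Viaat-Cre or Pvalb-Cre together with the Ai9 reporter, which makes Cre-expressing cells fluoresce. The labels give no line, age, sex or animal for a cell.

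The authors assigned each t-type from the exonic and intronic reads of the same cell, by likeness to reference data sets. A difference in RNA between t-types is therefore a description of the label, with no test. Since no animal is named, each group of cells is 1 sample, no difference has a replicate check, and the intervals given cover counting error only. The comparison group holds the 211 cells of the 17 other Sst t-types at 25 °C (other Sst cells). The t-types set beside Sst Calb2 singly are Sst Hpse (50 cells) and Sst Pvalb Calb2 (26 cells). A further 14 Sst Calb2 cells and 96 other Sst cells were recorded at 34 °C, from Sst-Cre/Ai9 or Pvalb-Cre/Ai9 mice, with fast glutamatergic and GABAergic transmission blocked. Those recordings aimed at layer 5. Cells of the excitatory t-type L5 IT_1 (61 cells at 25 °C), which should lack both marker genes, show the background.

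Somatostatin interneurons arise in the medial ganglionic eminence and release GABA, mostly onto the dendrites of pyramidal neurons. Many are Martinotti cells, whose axon ascends to layer 1, and those of the upper layers often carry calretinin, the calcium-binding protein that Calb2 encodes. Their input synapses from pyramidal neurons strengthen during repeated firing, a property tied to the synaptic protein Elfn1. The axon that defines a Martinotti cell is not among the values used here. The name was therefore only set beside genes, which cannot check it.

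The 61 cells came from 35 dates, read from the date that opens a cell's title, with 37 cells from the earlier and 24 cells from the later of the years in these titles that hold Sst Calb2 cells at 25 °C. Their exonic counts ranged from 2588 to 4471034 per cell with a median of 1295178, and the other Sst cells had a median of 1335333. The 8 members with fewer than 100000 counts were all from the earlier year. A member cell had a median of 6833 detected genes, against 6918 in the other Sst cells. No pair of Sst cells held identical counts. Levels are exonic reads scaled to 1000000 counted reads (CPM), after adding up all cells of a group unless a single cell is named. Log2 ratios were taken after adding 1 CPM to both groups, and a gene counts as higher or lower at a log2 ratio of 1 or more in size, with the higher group at 20 CPM or more.

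Every Sst Calb2 cell held somatostatin reads, and no other Sst t-type reached their summed level. The gene Sst (mm10, chromosome 16, 23889573 to 23890958, minus strand), which encodes the peptide that names the subclass, ranged from 403 CPM in the lowest member cell over a median of 3252 CPM to 11354 CPM in the highest. The other Sst cells ranged from 0 over a median of 1269 CPM to 13951 CPM, so single cells of both groups overlapped widely. The summed level was 4522 CPM against 1644 CPM, a log2 ratio of 1.46 (95% counting interval 1.45 to 1.47), with 1.57 in the earlier year and 1.26 in the later year. On 26 of the 31 dates that hold both groups, Sst was higher in Sst Calb2. Sst Th_3 came closest with 3379 CPM, and Sst Tac2 was lowest with 318 CPM. In L5 IT_1 cells 11 of 61 held an Sst read and the highest reached 55.4 CPM, below the lowest member.

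Calb2, the other marker, was read in only part of the cells that bear its name. The gene (chromosome 8, 110137502 to 110168210, minus strand) had a read in 33 of 61 members, or 54.1% (exact binomial interval 40.8 to 66.9), from 0 over a median of 6.99 CPM to 624 CPM per cell. It was read in 21 of 211 other Sst cells and in 5 of 61 L5 IT_1 cells. When each cell was thinned to 200000 counts, which leaves 50, 187 and 59 cells, the shares were 56% in Sst Calb2, 8.02% in the other Sst cells and 6.78% in L5 IT_1. The summed level was 90.1 CPM against 14.7 CPM (log2 ratio 2.54, interval 2.49 to 2.58). The years differed in size: 24 of 37 members held a read in the earlier year, at a log2 ratio of 3.996, and 9 of 24 in the later year, at 1.34.

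Calb2 did not single out the t-type among all Sst cells. Sst Chodl, the t-type of long-range projecting Sst neurons, had 84.9 CPM of Calb2 from 6 of its 12 cells, and Sst Pvalb Calb2 had 69.8 CPM from 4 of its 26 cells. Against Sst Pvalb Calb2 the log2 ratio was 0.36. Sst Hpse had 3.69 CPM, with a read in 4 of 50 cells, which is a share like that in L5 IT_1. In 14 of the 61 members a profile other than that of their own t-type lay nearest, as described with the neighbouring t-types.

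**Figure D1:**
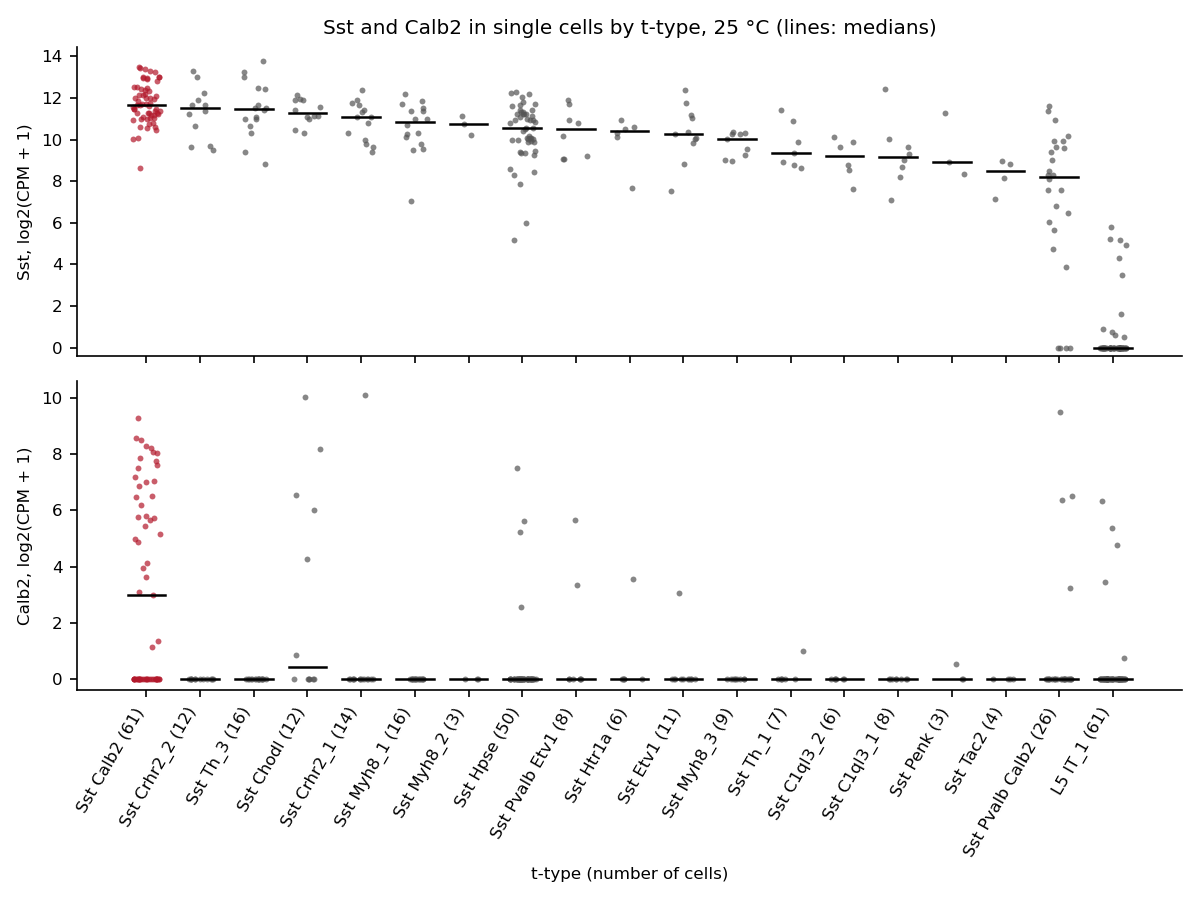
Level of Sst (top) and Calb2 (bottom) in each cell at 25 °C, as log2(CPM + 1), by t-type with the number of cells in brackets; points are cells, black lines are medians, and Sst Calb2 is red. All 61 Sst Calb2 cells hold Sst reads, whereas their Calb2 values split between 0 and up to 624 CPM and most other Sst t-types have a Calb2 median of 0.

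Across all genes, 387 of 8713 were higher in Sst Calb2 than in the other Sst cells (4.44%) and 541 were lower (6.21%), with a median log2 ratio over all genes of -0.03. These counts depended on how the cells were split: cells of the earlier year alone gave 681 higher and 774 lower genes, and cells of the later year alone gave 721 and 1135. A stricter rule, which asked for the same direction and size in both years and in the mean of CPM over cells, and for a read in at least 0.3 of the cells, left 74 higher genes (0.849%) and 119 lower genes (1.37%). The 15 with the largest log2 ratios in each direction are described next. All 30 kept their direction and a log2 ratio of at least 1 in size under each of 12 other ways of computing it, which the rule itself fixes for either year alone and for the mean of CPM over cells.

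The 15 leading higher genes held secreted proteins, regulators of transcription and membrane proteins, with log2 ratios from 2.05 to 3.31. Olfm3 (chromosome 3, 114904078 to 115125722, plus strand), a secreted olfactomedin-domain protein of the brain, was the most abundant. It ranged from 0 over a median of 419 CPM to 2310 CPM in the members, with a read in 57 of 61 cells, and from 0 over a median of 0 to 1872 CPM in the other Sst cells, with a read in 44 of 211. The groups overlapped, both among cells with reads and at 0, where 4 members lay. Its log2 ratio was 3.23, with 2.79 in the earlier year and 3.30 in the later year, and it was higher in Sst Calb2 on 29 of 31 shared dates. The t-types next to it were Sst Hpse with 255 CPM and Sst Pvalb Etv1 with 183 CPM, against 690 CPM in Sst Calb2.

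Cbln4 (chromosome 2, 172036233 to 172043466, minus strand) encodes a cerebellin, a secreted protein that binds neurexins at synapses. It was read in 40 of 61 members, from 0 over a median of 128 CPM to 1561 CPM, and in 34 of 211 other Sst cells, up to 422 CPM. The log2 ratio was 2.98, with 2.90 in the earlier year and 2.89 in the later year. Among the other Sst t-types, Sst Pvalb Etv1 came closest at 117 CPM against 247 CPM. Nppc, which encodes C-type natriuretic peptide, was read in 44 of 61 members and 55 of 211 other Sst cells (70.8 against 9.59 CPM).

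Eya1, a transcriptional coactivator, headed the 15 by its ratio (3.31), with 164 against 15.7 CPM and reads in 40 of 61 members. Cacng5, a transmembrane regulator of AMPA receptors, followed at 3.28 (109 against 10.3 CPM). Maml2, a coactivator of Notch signalling, stood at 3.16 (46.3 against 4.31 CPM). Atp2b4, a plasma membrane calcium pump, stood at 3.09 and was read in 43 of 61 members, although it was also read in 44 of 61 L5 IT_1 cells. Zfpm2, a cofactor of GATA factors, stood at 2.85, and Pcdh19, a protocadherin, at 2.77. Pcsk5, a proprotein convertase, was higher in Sst Calb2 than in the other Sst cells as a whole (log2 ratio 2.48), but Sst Chodl had more of it (257 against 125 CPM). Grm4, a metabotropic glutamate receptor, had a ratio of 2.19, Daam2 of 2.44, Tspan6 of 2.22, and the telencephalic adhesion molecule Icam5 of 2.05. For 11 of the 15 genes, Sst Calb2 had the highest summed level of all 18 Sst t-types.

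The 15 leading lower genes stood between 0.012 and 28.7 CPM in Sst Calb2. Kcnip4 (chromosome 5, 48389502 to 49524907, minus strand), a subunit that slows inactivation of A-type potassium channels, had the largest ratio (-6.25, interval -6.37 to -6.13). It ranged from 0 over a median of 0 to 110 CPM in the members and from 0 over a median of 52.9 CPM to 5244 CPM in the other Sst cells. Sst Calb2 was the lowest of the 18 Sst t-types, with 4.60 CPM against 19.9 CPM in the next lowest, Sst Etv1, and 2309 CPM in the highest, Sst Th_1. The predicted gene Gm43670 (-4.92) lies within Kcnip4 on the opposite strand, and since the reads carry no strand the values of these genes cannot be told apart.

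Spon1, a secreted matrix protein that guides axons, had 11.2 against 505 CPM and was read in 12 of 61 members and 117 of 211 other Sst cells. Its low level was shared by Sst Hpse (15.4 CPM) and Sst Htr1a (5.80 CPM). Erbb4, the neuregulin receptor of many cortical interneurons, had 5.73 against 118 CPM, but Sst Calb2 ranked only 13 of the 18 t-types. Sst Hpse (4.97 CPM), Sst Chodl (3.01 CPM) and Sst Etv1 (0.62 CPM) were among those lower still, and Sst Th_1 was highest (853 CPM). Cntnap4, a neurexin-like protein of interneuron synapses, had 3.09 CPM, the lowest of the 18 t-types, next to 4.21 CPM in Sst Hpse. Gpx3, a secreted glutathione peroxidase, had 0.37 against 65.1 CPM. The glycosyltransferases St6galnac5 and Mgat4c had ratios of -6.17 and -3.35, and Gm47033, a long noncoding RNA gene, had -6.05. Csmd3 (-3.68), Sphkap (-3.62), Kcnmb2 (-3.47), Gabrb2 (-3.31) and Fxyd6 (-3.31) were also among them.

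Of 7 markers of oligodendrocytes, the cells that make myelin, 3 had at least 20 CPM in a group. All 3 were lower, against 6.21% lower over all genes. Among them were Mbp (-1.37) and Mobp (-2.12), which encode myelin proteins. The 7 markers on the list summed to 255 CPM in Sst Calb2 (0 to 4218 CPM per cell, median 133 CPM). In the other Sst cells they summed to 774 CPM (0 to 19019 CPM per cell, median 361 CPM). The low sum was not particular to Sst Calb2, since Sst Hpse had 494 CPM and Sst Pvalb Calb2 350 CPM. Against each of these t-types alone, 1 of 3 measured markers was lower, with 7.49% and 12% lower over all genes. The part of these markers in the other results was not tested.

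**Figure D2:**
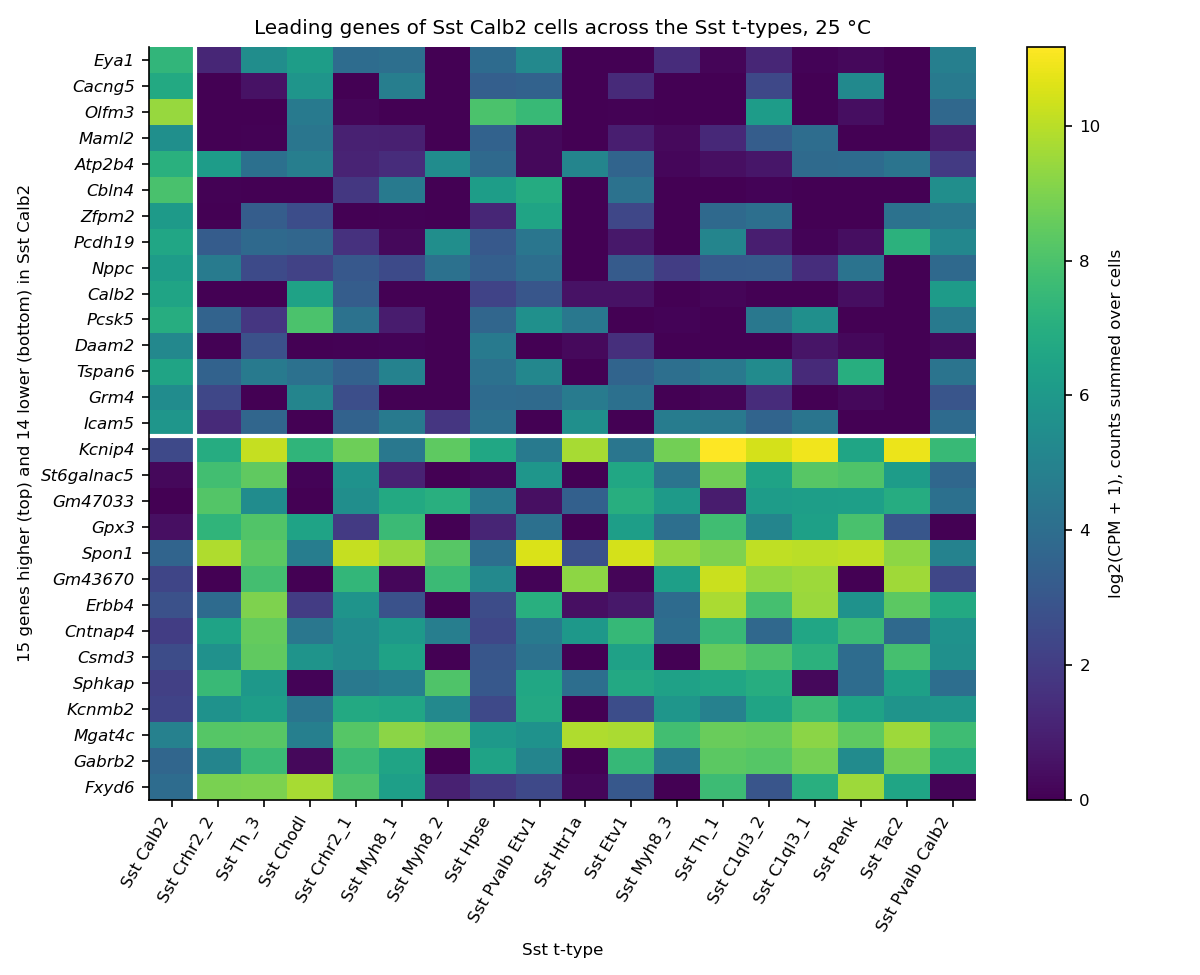
Summed level, as log2(CPM + 1) on the colour scale, of the 15 leading higher genes (above the white line) and 14 of the 15 leading lower genes (below it) in each of the 18 Sst t-types at 25 °C, with Sst Calb2 in the leftmost column. Sst Calb2 is brightest for 11 of the 15 upper genes, and Sst Hpse shares the dark cells of several lower genes such as Spon1, Erbb4 and Cntnap4. Sst Chodl and Sst Etv1 are dark for Erbb4 too.

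Intronic reads and the 34 °C cells gave further counts of the same 30 genes, neither of them independent of the labels. Of 14 leading higher genes with at least 5 CPM of intronic counts in a group, 13 had the same sign in introns, with Pcdh19 the exception (-0.27). All 11 leading lower genes that could be read in introns were lower there too. A log2 ratio of 1 in size in introns was passed by 11 of these 14 higher genes and by all 11 lower genes. At 34 °C, 14 of 15 leading higher genes and 15 of 15 leading lower genes had the same sign, and 11 and 15 passed a log2 ratio of 1 in size. Tspan6 was the exception, with 2.22 at 25 °C and -0.72 at 34 °C. In introns 10.2% of all genes were higher and 11.4% lower (21.6% either way), and at 34 °C 4.03% were higher and 9.37% lower. These shares ask for a ratio of 1 in size at 20 CPM. They belong beside the counts past that ratio and not beside the counts of sign.

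Sst itself had a smaller ratio at 34 °C (0.68, 3474 against 2166.2 CPM). Calb2 had a larger one (3.63), with a read in 9 of 14 Sst Calb2 cells and in 4 of 96 other Sst cells. Olfm3 was read in all 14 cells, from 54.2 over a median of 636 CPM to 2045 CPM, and in 23 of 96 other Sst cells. Crhbp, too, was read in all 14 cells (241 to 2104 CPM). Temperature, synaptic blockers, mice, year and target layer all differ between these sets of cells and cannot be told apart.

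**Figure D3:**
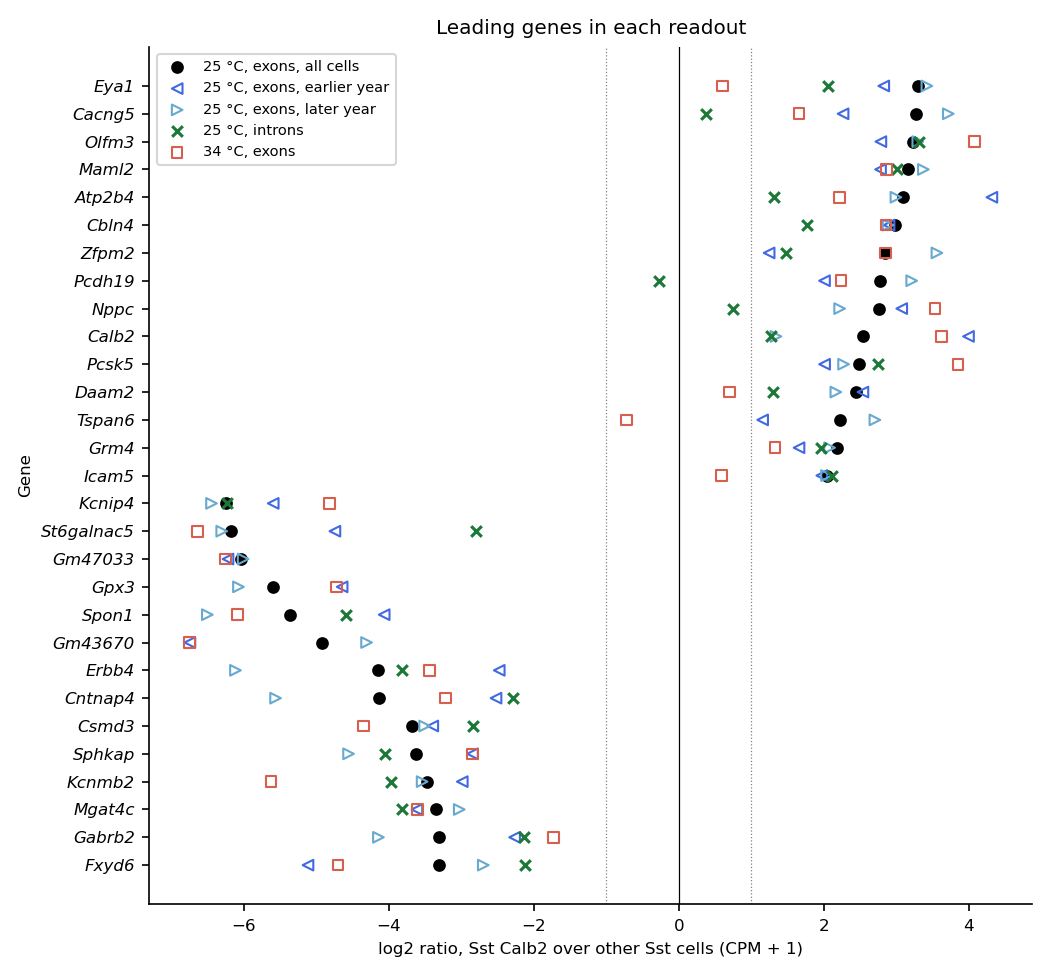
Log2 ratio of Sst Calb2 over the other Sst cells for 29 of the 30 leading genes in exonic counts of all 25 °C cells, in the earlier and the later year alone, in intronic counts and in the 34 °C cells; dotted lines mark a ratio of 1 in size, and a readout with less than 5 CPM in both groups is left out. The 15 upper genes lie to the right of 0 apart from Pcdh19 in introns and Tspan6 at 34 °C, and the 14 lower genes lie to the left in every readout shown.

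Genes known from Martinotti cells were present, with differences in size. Npy, which encodes neuropeptide Y, was read in 60 of 61 members, from 0 over a median of 1781 CPM to 16769.5 CPM, and in 196 of 211 other Sst cells around a median of 797 CPM. Its summed log2 ratio was 1.02, but 0.49 in the earlier year and 1.19 in the later year, and Sst Chodl had far more of it (9435 against 3178 CPM). Elfn1, the organizer of facilitating synapses, had 216 against 117 CPM (0.88), with reads in 53 of 61 members. Calb1, which encodes calbindin, was read in 50 of 61 members around a median of 399 CPM and differed little in sum from the other Sst cells (-0.20). Reln, which encodes the matrix protein reelin, was read in 58 of 61 members (650.5 against 501 CPM). Of the 7 listed genes with at least 20 CPM, 3 were higher (Sst, Calb2 and Npy) and none lower, against 4.44% higher and 6.21% lower over all genes. Sst and Calb2 name the t-type, which was assigned from the same RNA, so this count cannot check the Martinotti name.

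Chrna2, the nicotinic receptor subunit that marks deep-layer Martinotti cells, had no read in any of the 61 members nor in the 14 cells at 34 °C. The other Sst cells stood at 7.13 CPM in sum. Reads include PCR copies and come from few cells, so no fold is given. The exact binomial interval for the share of members with a read reached up to 5.87%. In all, 13 of the 211 other Sst cells held a read. Sst Myh8_1 held 7 of these, out of its 16 cells (58.6 CPM), and 11 of the 17 other t-types held none. A read was also held by 11 of 61 L5 IT_1 cells.

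Among genes in the names of the other Sst t-types, most were absent or low. Th, which encodes the enzyme that starts dopamine synthesis, had no read in Sst Calb2 and 75.5 CPM in the other Sst cells, from 25 of 211 cells. Tac2 had 0.07 against 23.8 CPM, Penk 2.27 against 51.5 CPM, Crhr2 11.5 against 28.2 CPM and Etv1 6.65 against 26.3 CPM. Pvalb stood at 1.91 against 19.997 CPM, just short of the 20 CPM asked for. Hpse, which encodes heparanase and names the t-type with the nearest mean profile, was read in 19 of 61 members. Its 96.3 CPM was the level next to that of Sst Hpse (237 CPM). Its ratio to the other Sst cells turned between the years, from -2.10 in the earlier year to 1.51 in the later year.

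Of 10 measured peptides and binding proteins, 3 were higher and 6 lower, against 4.44% higher and 6.21% lower over all genes. Their median log2 ratio was -1.23 beside -0.03 over all genes, but -0.66 in the earlier year, -2.63 in the later year and -0.79 with the mean of CPM over cells. Crhbp, the binding protein of corticotropin-releasing hormone, ranged from 0 over a median of 1185 CPM to 8014 CPM, with a read in 59 of 61 members against 143 of 211 other Sst cells (log2 ratio 1.42, 0.94 in the earlier year and 1.61 in the later year). Only Sst Chodl had more Crhbp among the Sst t-types. Pdyn, the dynorphin precursor, was lower in sum (332 against 748 CPM) although 41 of 61 members held a read. Tac1, which encodes substance P, had 0.18 against 40.6 CPM, and Pnoc, the nociceptin precursor, had 0.29 against 23.1 CPM. Tac1 had the opposite sign at 34 °C, where 1 of 14 Sst Calb2 cells held all of its reads (5.27 against 0.08 CPM). Crh was lower in sum (20.6 against 51.6 CPM) with opposite signs in the earlier year (0.62) and the later year (-3.99).

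Receptors for peptides and monoamines showed 2 of 11 higher and 3 lower, against 4.44% higher and 6.21% lower over all genes. Oprk1, the kappa opioid receptor, had 52.5 against 13.97 CPM from 15 of 61 and 18 of 211 cells. Oxtr, the oxytocin receptor, had 132 against 59.5 CPM, and 1.76 at 34 °C on the log2 scale. Drd1, a dopamine receptor, had 0.49 against 30.1 CPM, and Cckbr, the cholecystokinin B receptor, had 8.55 against 37.3 CPM.

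Of 12 GABA receptor subunits measured, 6 were lower and none higher, against 6.21% lower and 4.44% higher over all genes. The list had a median log2 ratio of -0.88, which was -1.04 in the later year alone and close to 0 in the earlier year alone. Gabrb2, a beta subunit, had 12.004 against 128 CPM (-3.31), and 28.5 against 96.6 CPM at 34 °C. Gabrg3 had 20.4 against 88.02 CPM, and Gabrd, the delta subunit of extrasynaptic receptors, had 31.2 against 124 CPM. Gabrb1 and Gabra4 had ratios of -1.14 and -1.02, the latter 0.02 in the earlier year and -3.26 in the later year. Compared with Sst Hpse alone, 3 of 12 subunits were lower and 1 was higher, against 7.49% lower and 8.41% higher over all genes. The list median against Sst Hpse was close to 0, at -0.06.

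None of 14 ionotropic subunits passed a log2 ratio of 1, against 10.7% either way over all genes, and the list had a median of -0.10. For 14 genes this is little apart from the share over all genes. Gria1, the AMPA receptor subunit GluA1, came nearest on the higher side at 0.73, with a median cell of 1489.6 CPM against 751 CPM, and the kainate receptor subunits Grik5 (-0.98) and Grik1 (-0.95) on the lower side. Of 5 metabotropic receptors Grm4 alone was higher (4.44% over all genes). Acetylcholine receptors gave 1 higher and 3 lower of 5 (4.44% and 6.21% over all genes). Chrm3, a muscarinic receptor, had 174 against 80.7 CPM and was highest in Sst Calb2 of all Sst t-types. Chrm2 was read in 1 of 61 members and 48 of 211 other Sst cells (3.77 against 24.7 CPM). The nicotinic subunits Chrna4 (-1.05) and Chrnb2 (-1.06) had ratios of 0.63 and 0.13 at 34 °C.

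Synaptic organizers, 21 in number, included 2 higher and 4 lower genes, beside 4.44% and 6.21% over all genes. Beside Cbln4, the receptor phosphatase gene Ptprd was higher, with 249 against 84.3 CPM, a median cell of 200 CPM against 1.74 CPM and the top level of the 18 t-types. Nxph2, a neurexin ligand, had 0.08 against 20.4 CPM but a ratio of -0.10 at 34 °C. Clstn2 (-1.83), Lrrtm1 (-1.503) and Lrrtm4 (-1.21), which encode postsynaptic adhesion proteins, were the others on the lower side.

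**Figure D4:**
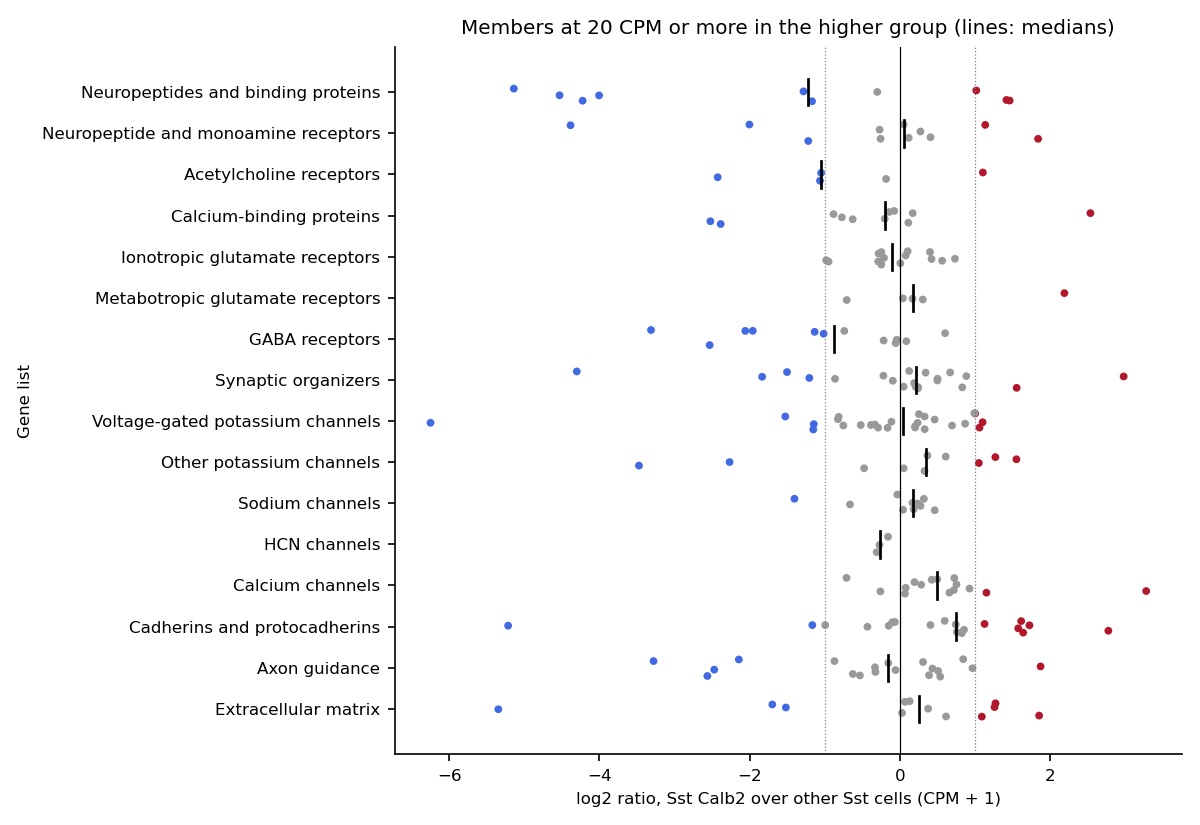
Log2 ratio of Sst Calb2 over the other Sst cells at 25 °C for each gene of the signalling, synapse, excitability and wiring lists whose higher group reached 20 CPM; red and blue points pass a ratio of 1 in size, and black lines are list medians. The median of GABA receptors (-0.88) lies to the left of that of ionotropic glutamate receptors (-0.10), but the points of these lists overlap. In the earlier year alone the same medians were -0.005 and 0.06. To the right of 1 lie 6 cadherins and protocadherins.

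Voltage-gated potassium channels gave 3 higher and 4 lower of 26 (4.44% and 6.21% over all genes), with a median of 0.04. The higher genes were Kcnh5 (1.10), Kcnh2 (1.06) and Dpp10, which encodes a partner of A-type channels (1.0001). Apart from Kcnip4, the lower genes were Kcnip2 (-1.53), Kcnc2 (-1.15) and Kcnc4 (-1.15), and Kcnc2 and Kcnc4 encode fast-activating Kv3 channels. Kcnc2 had ratios of -0.26 in the earlier year and -1.70 in the later year. Of 10 other potassium channels 3 were higher and 2 lower, against 4.44% higher and 6.21% lower over all genes. Kcnk10, a background potassium channel gene (1.55), Kcnk2 (1.05, but -0.42 in the earlier year) and the small-conductance calcium-activated channel gene Kcnn2 (1.27) were the higher ones. Kcnmb2, a beta subunit of the large-conductance channel, and Kcnj3, a subunit of G-protein-gated inward rectifiers (-2.27), were lower. Sodium channels showed 1 lower gene of 10 (6.21% over all genes), Fgf13 (-1.40), and none of the 3 measured genes of the HCN list passed, with Hcn3 at -0.16 and the HCN partner gene Pex5l at -0.31. Calcium channels gave 2 higher of 15 (4.44% over all genes), Cacng5 and Cacna2d3 (376 against 169 CPM), an auxiliary subunit that was highest in Sst Calb2 of all Sst t-types.

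Among calcium-binding proteins, Calb2 was the only higher gene of 11, and 2 were lower, against 4.44% higher and 6.21% lower over all genes. Ncald, a neuronal calcium sensor, had 73.5 against 388 CPM (-2.39), with a median cell of 1.52 against 179 CPM, and was lowest in Sst Calb2 of all 18 t-types. Its ratios were -2.32 in the earlier year, -2.29 in the later year and -2.36 at 34 °C. Necab3 had 10.1 against 62.6 CPM.

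Cadherins and protocadherins, which hold neurons together by like binding, gave 6 higher and 2 lower of 19, against 4.44% higher and 6.21% lower over all genes, with a median log2 ratio of 0.74. Higher were Pcdh19, Cdh8 (1.72), Pcdh8 (1.64), Cdh11 (1.61), Pcdh18 (1.57) and Cdh4 (1.13), of which 3 passed a ratio of 1 at 34 °C (Pcdh18, Pcdh19 and Cdh11). Cdh12 was read in 3 of 61 members and 61 of 211 other Sst cells (0.04 against 37.5 CPM), and Cdh18 had a ratio of -1.17. Axon guidance genes gave 1 higher and 4 lower of 19, with the same 4.44% and 6.21% over all genes. Unc5c, a netrin receptor, had 114 against 30.5 CPM, whereas its relative Unc5d had 14.52 against 67.7 CPM. The ligands Slit1 (-2.56), Slit2 (-2.47) and Sema3e (-3.28) were lower, Sema3e with ratios of -0.26 in the earlier year and -6.78 in the later year.

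Extracellular matrix genes gave 4 higher and 3 lower of 12, against 4.44% higher and 6.21% lower over all genes. The collagen gene Col19a1 was abundant, with a median cell of 1171 CPM against 382 CPM (log2 ratio 1.09). Col11a1 (1.27) and Col25a1 (1.26, but -0.06 in the earlier year) were higher too, and the proteoglycan gene Bcan was lower (28.5 against 94.9 CPM). Col6a1 was nearly silent (0.13 against 45.02 CPM). Adamts15 was higher in sum (1.85) but had a ratio of -1.60 in the earlier year. Tnr, which encodes tenascin-R, stood at -1.52.

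Few genes were called among those that make the cells GABAergic or among factors of the medial ganglionic eminence lineage. These lists are too short to be set apart by such counts. Over all genes, 4.44% were higher and 6.21% lower, which are the shares to set beside each count here. Of 9 GABAergic identity genes (such as Gad1, Gad2 and Slc32a1) none was higher, with a median ratio of 0.00, and the antisense gene Dlx6os1 alone was lower (-1.80, but 0.35 at 34 °C), whose reads cannot be told apart from those of overlapping genes without strand. Of 6 lineage factors measured, Maf was higher (132 against 63.04 CPM) and Satb1, a chromatin organizer of these cells, was lower (245 against 547 CPM) and lowest in Sst Calb2 of the 18 t-types. Against Sst Hpse alone none of 6 lineage factors was called, with 15.9% called either way over all genes. Of 9 other interneuron transcription factors, Etv1 alone passed, on the lower side.

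Genes induced by activity gave 2 higher of 15 (4.44% over all genes), Nr4a3 (1.80) and Egr4 (1.36), which had ratios of -0.80 and -0.18 at 34 °C. Counts of the mitochondrial genome summed to 6880 CPM against 9760 CPM, but the median cell had 6035 CPM against 5063 CPM. Single cells reached 23475 CPM in Sst Calb2 and 83234 CPM in the other Sst cells. None of the 8 measured mitochondrial genes passed a ratio of 1, against 10.7% either way over all genes. Microglia markers summed to 940 CPM in Sst Calb2 and 613 CPM in the other Sst cells, with 344 against 501 CPM in the earlier year and 1412 against 641 CPM in the later year, and single members ranged from 0 to 10044 CPM. None of the 7 measured microglia markers passed a ratio of 1 (10.7% either way over all genes). Astrocyte markers summed to 213 against 187 CPM, and Slc1a3 was the 1 marker of 3 to pass (1.16, with 4.44% higher over all genes). Markers of excitatory neurons and of endothelial and mural cells had no gene at 20 CPM, with sums of 39.9 and 6.21 CPM, and those of the Vip, Pvalb and Lamp5 families summed to 6.72, 123 and 13.97 CPM.

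Sst Hpse had the mean profile nearest to that of Sst Calb2. Over 1000 variable genes, the correlation distance between mean profiles was 0.0345 to Sst Hpse, 0.0665 to Sst Pvalb Calb2 and 0.0855 to Sst Crhr2_1. These t-types hold 50, 26 and 14 cells, whereas the farthest, Sst Tac2 at 0.221, holds 4. Sst Myh8_3, with 9 cells, lay at 0.163. The part of cell number in these distances was not tested. Of the 61 members, 47 lay nearest the mean profile of their own t-type, computed without the cell itself. A further 7 lay nearest Sst Myh8_3, 5 nearest Sst Hpse, and 1 each nearest Sst Pvalb Calb2 and Sst Etv1, among 15 t-types with at least 5 cells.

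Between Sst Calb2 and Sst Hpse, 731 of 8693 genes were higher (8.41%) and 651 lower (7.49%). Calb1 was higher in sum, at 786 against 101 CPM (log2 ratio 2.95). Reads were held by 50 of 61 Sst Calb2 cells and 19 of 50 Sst Hpse cells. Single cells overlapped, with up to 1254 CPM in Sst Hpse. Eya1 (3.48), Pcdh19 (3.50), Cacng5 (3.38), Atp2b4 (3.29), Npy (1.89) and Sst (1.60) were higher as well, and 14 of the 15 leading higher genes passed a ratio of 1. Reln had 650.5 CPM against 1018 CPM in Sst Hpse (-0.65), short of a ratio of 1. Pdyn was lower in Sst Calb2 by a ratio of -2.56 and Kcnip4 by -4.18. Only 6 of the 15 leading lower genes passed a ratio of 1 here, so that most of them were low in both t-types.

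Against Sst Pvalb Calb2, which shares the Calb2 name, 970 of 8851 genes were higher (11%) and 1066 lower (12%). Sst was 4522 against 615 CPM (2.88), and 4 of the 26 Sst Pvalb Calb2 cells held no Sst read. Reln was 650.5 against 13.1 CPM (5.53), Olfm3 690 against 12.8 CPM (5.64) and Chrm3 174 against 18.6 CPM (3.16). Calb1 was lower in Sst Calb2 (786 against 2523 CPM, -1.68), as was Tac1 (0.18 against 194 CPM, -7.37).

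**Figure D5:**
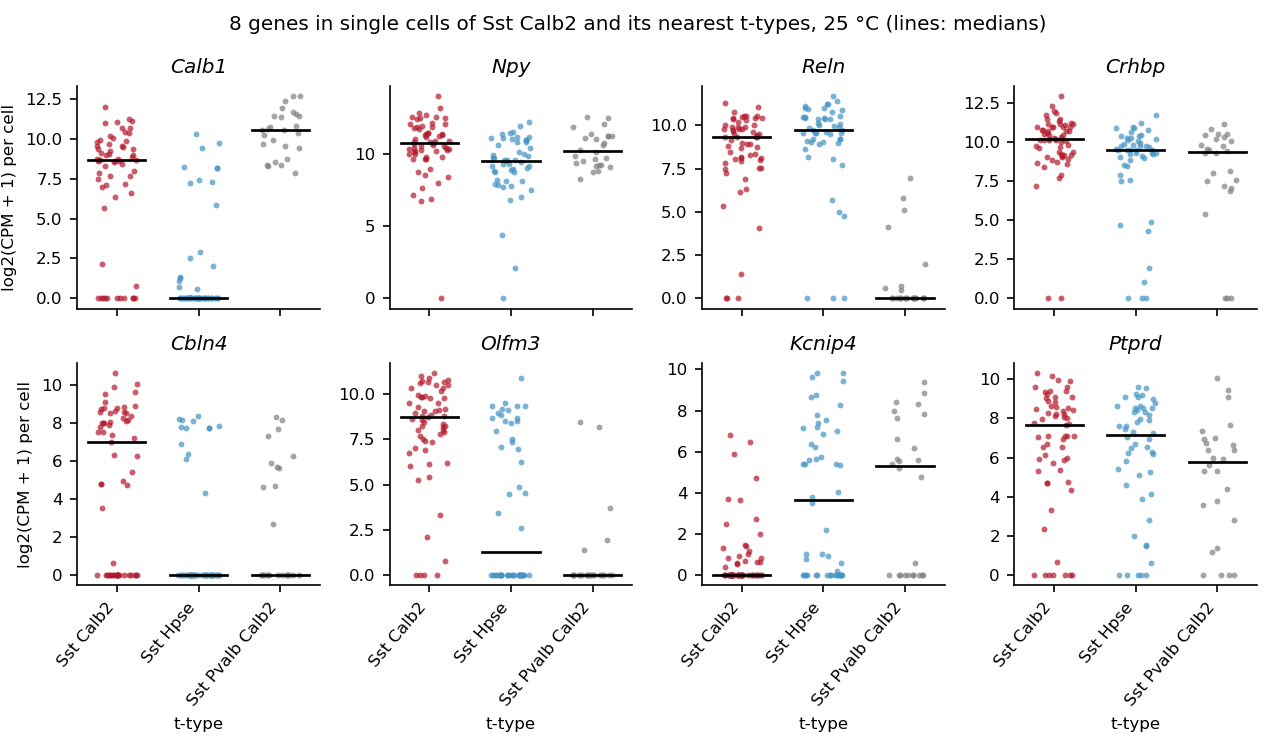
Level per cell, as log2(CPM + 1), of 8 genes in Sst Calb2 (61 cells), Sst Hpse (50 cells) and Sst Pvalb Calb2 (26 cells) at 25 °C; points are cells and lines are medians. Calb1 is near 0 in most Sst Hpse cells, Reln in most Sst Pvalb Calb2 cells, and Cbln4 and Olfm3 have their highest median in Sst Calb2.

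Sst Calb2 cells also differed among themselves by year and by temperature. From the earlier to the later year, 929 of 8841 genes were higher and 1206 lower by the same rule, and from 25 °C to 34 °C 893 of 8635 were higher and 1422 lower. Calb2 was lower in the later year (42.8 against 150 CPM), Hpse was higher (155 against 21.8 CPM), and Npy (3204 against 3145 CPM) and Olfm3 (632 against 762 CPM) differed less. Groups of cells taken in other years differ in animals and depth, and what these differences come from was not tested.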

How the data were processed

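The authors aligned single-end reads of 75 bases to mm10 with STAR (2.5.4b) after bcl2fastq (2.20), versions as in the submitters' processing notes, used zUMIs with Gencode M23 to count reads for each gene, and deposited whole-number read counts, exonic and intronic apart, without normalization. Smart-seq2 libraries carry no molecular identifiers, so copies made by PCR are counted. Of 1329 columns at 25 °C, 9 match no sample and stayed unused. The 85 spike-in rows (3.80% of the counts of the columns read) were left out of all totals. For 34 °C cells exonic counts alone were analysed.

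Members are the cells labelled Sst Calb2. The members and lists were chosen with earlier results of these data known. For each group the counts of its cells were added up and scaled by their total (CPM), which gives deep cells more weight. Intervals (95%) are exact and cover counting error only. Doublets were not searched for, since each cell was drawn through a pipette. Genes named are Sst, Calb2, genes in the names of Sst t-types, the 15 largest ratios in each direction under the stricter rule, and up to 4 members of each of 32 lists with any others needed to say what a list holds, these last named after their values were seen. Of 439 listed symbols, 435 were in the table. Gene positions are from GENCODE M21. Python 3.11.15, numpy 2.4.6, pandas 2.3.3, scipy 1.17.1 and matplotlib 3.10.9 were used, and the calculations were tested on simulated data.
Alternatives were other added CPM values, level minimums, scalings, cell weights, depth cuts and subsets of cells by year, date or t-type. Some results of listed genes are not reported here.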

Additional observations from a re-analysis of the deposited data

Results flagged for a closer look

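Named genes were looked at again where the difference between Sst Calb2 and the other Sst cells had a log2 ratio of 1 or more in size in each year but with opposite signs. Hpse stood at -2.10 in the earlier year and 1.51 in the later year, with a read in 8 of 37 and 11 of 24 Sst Calb2 cells. Ctss, a microglia marker, stood at -1.02 in the earlier year and 1.35 in the later year. The difference between the years was not tested for either gene, since each group is 1 sample.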

How the results depend on the processing

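The counts of higher and lower genes, given in that order, moved mainly with the level asked for and with smaller sets of cells, and in each pair below at least 1 count moved by more than 1.5 times. Against the other Sst cells they were 681 and 774 with cells of the earlier year only, 721 and 1135 with cells of the later year only, 191 and 288 with 10 CPM added, 162 and 206 at 50 CPM or more, and 899 and 1291 at 5 CPM or more. Against Sst Hpse they were 1434 and 1233 in the earlier year, 1126 and 1216 in the later year, 1278 and 1221 on shared dates, 407 and 388 with 10 CPM added, 282 and 277 at 50 CPM, and 1638 and 1393 at 5 CPM. Against Sst Pvalb Calb2 they were 1592 and 1729 in the later year, 1463 and 1757 on shared dates, 639 and 704 with 10 CPM added, 434 and 533 at 50 CPM, and 1930 and 1798 at 5 CPM. The other alternatives stayed within 1.5 times. Of 150 genes, those named by rule and the other called list members, under 12 alternatives 6 called genes turned, all in the earlier year only: Adamts15 to -1.60, Kcnk2 to -0.42, Col25a1 to -0.064, Slc1a3 to -0.047, Crh to 0.62 and Gabra4 to 0.022. Hpse, which was not called over both years, also had opposite signs in them. Median-of-ratios scaling shifted all ratios by -0.01 against the other Sst cells, 0.01 against Sst Hpse and -0.05 against Sst Pvalb Calb2. The cause of these differences was not tested. No paired analysis was possible by replicate number, because the labels number no replicates and no test was made. Dates shared by both groups served only for the counts of directions and the values on shared dates. Cells with few counts limit what a missing read can show, as the 8 members with fewer than 100000 counts do.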
